A study of Mus musculus with 47 samples.

Results

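The transcripts described here encode the precursors of 10 hypothalamic neuropeptides outside the melanocortin system, chosen by gene symbol as Hcrt, Pmch, Oxt, Avp, Trh, Crh, Ghrh, Tac2, Sst and Pdyn. All 10 were among the 14221 genes of a bulk RNA-seq count table of mouse hypothalamus. The table held 47 libraries, each from 1 male ob/ob mouse, which lacks functional leptin and is obese, labelled as 11 weeks old. The mice had received 1 intracerebroventricular injection of either 3 µg of FGF1 (fibroblast growth factor 1, a peptide that lowers blood glucose in such mice) or vehicle, and the vehicle mice were labelled as pair-fed, that is, given the amount of food eaten by the FGF1 mice. Hypothalamus was taken on Day 1 (10 FGF1 and 4 vehicle mice), Day 5 (9 FGF1, 7 vehicle labelled non-diabetic and 7 vehicle labelled diabetic) and Day 42 (5 FGF1 and 5 vehicle). The vehicle mice of Day 1 and Day 42 were all labelled non-diabetic. No wild-type or lean mice were part of these groups, so every comparison was made within leptin deficiency.

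These genes mark small neuron populations, in part overlapping, whose peptides leave either into the blood or onto other neurons. Lateral hypothalamic neurons make hypocretin (orexin, from Hcrt), which sustains wakefulness, or melanin-concentrating hormone (from Pmch), which promotes feeding. Magnocellular neurons send oxytocin (Oxt) and vasopressin (Avp, the antidiuretic hormone) to the posterior pituitary. Parvocellular neurons release thyrotropin-releasing hormone (Trh), corticotropin-releasing hormone (Crh), growth hormone-releasing hormone (Ghrh) and somatostatin (Sst, which inhibits growth hormone) towards the anterior pituitary. Neurokinin B (Tac2) and dynorphin (Pdyn) come together from arcuate neurons that drive the reproductive axis, and both are also made elsewhere.

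The promoters of 9 of the 10 genes were found in RefSeq tables of GRCm38.p6, and 5 are shown, those of the peptide that passed the test of FGF1 (Pmch), its lateral hypothalamic partner (Hcrt) and the 3 transcripts that varied together most closely among mice (Oxt, Avp and Sst). Each line holds the 150 bases before the RefSeq start of the gene, 5′ to 3′ on the strand of the gene. Capitals mark every match, on either strand, to a TATA box written as TATAAA, to its relatives ATAAATA (met in Avp) and ATAAAAA (met in Oxt), or to the cyclic AMP response element TGACGTCA. These motifs were picked after the promoters had been read. The windows were chr10:88090922-88091071 (plus strand) for Pmch, chr11:100762932-100763081 (minus) for Hcrt, chr2:130576019-130576168 (plus) for Oxt, chr2:130582589-130582738 (minus) for Avp and chr16:23890845-23890994 (minus) for Sst.
Pmch: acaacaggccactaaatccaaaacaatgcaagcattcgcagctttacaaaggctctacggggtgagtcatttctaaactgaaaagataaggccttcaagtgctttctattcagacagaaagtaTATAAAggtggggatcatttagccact
Hcrt: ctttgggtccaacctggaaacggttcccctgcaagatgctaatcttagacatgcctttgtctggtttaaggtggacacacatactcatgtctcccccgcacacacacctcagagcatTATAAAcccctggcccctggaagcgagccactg
Oxt: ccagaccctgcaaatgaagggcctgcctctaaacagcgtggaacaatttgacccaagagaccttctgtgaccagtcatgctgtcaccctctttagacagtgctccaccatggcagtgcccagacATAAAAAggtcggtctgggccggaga
Avp: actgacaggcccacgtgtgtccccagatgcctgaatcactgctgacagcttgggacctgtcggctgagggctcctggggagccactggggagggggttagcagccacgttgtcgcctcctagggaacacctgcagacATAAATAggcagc
Sst: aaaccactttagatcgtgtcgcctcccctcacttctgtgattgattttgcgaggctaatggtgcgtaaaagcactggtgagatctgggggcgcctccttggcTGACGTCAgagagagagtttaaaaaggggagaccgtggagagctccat
TATAAA began 27 bases before the start of Pmch and 33 bases before that of Hcrt, ATAAAAA 26 bases before that of Oxt, and ATAAATA 13 bases before that of Avp. In Sst, TGACGTCA began 48 bases before the start. Over windows of the same length at 32851 mouse promoters, TATAAA was held by 7.57%, ATAAATA by 2.88%, ATAAAAA by 3.31% and TGACGTCA by 1.36%. These are descriptions of the letters, and binding was not measured. Oxt and Avp are neighbours on chromosome 2, transcribed towards each other, with 3565 bases between them. Pmch is overlapped by Parpbp on the opposite strand, and since the strand setting of the counting was not given in the sources used here, reads of the pair cannot be fully assigned. Over the 47 mice Parpbp ran from 0.568 to 16.6 CPM (counts per 1e6 counts of the library), against at least 51.7 CPM for Pmch.

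Library totals ran from 1243280 to 47082403 counts, with a single shallow FGF1 library on Day 1, and the next lowest total was 7579695. All libraries of a day shared 1 preparation code that no other day had, so a difference between days cannot be told apart from a difference between preparations. Of 11 hypothalamic transcription factor genes checked against the labelled tissue, 10 were measured, and their summed level ran from 157 to 211 CPM on Day 1, from 51.3 to 77.5 CPM on Day 5 and from 50.6 to 118 CPM on Day 42. In the same order of days, the sum of 10 thalamic markers ran from 199 to 300 CPM, from 263 to 772 CPM and from 246 to 1697 CPM, and the sum of 80 ribosomal protein genes from 10480 to 14340, from 13910 to 16060 and from 8190 to 11260 CPM. In whole tissue, fewer cells of a type and less RNA per cell cannot be told apart.

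The levels of several peptides stood apart on Day 5. Levels are given in CPM with library sizes scaled by TMM, and comparisons between genes as CPM per kilobase of exon. In vehicle mice of Day 1, Pmch was the highest of the 10 per kilobase, at 1250 CPM per kilobase, followed by Avp at 197 and Trh at 95.8. Crh, the lowest, stood at 7.03 CPM per kilobase. In non-diabetic vehicle mice of Day 5, Avp led with 391 CPM per kilobase and Oxt followed with 282, ahead of Pmch with 92.7. On Day 42 the vehicle order was again headed by Pmch at 977 CPM per kilobase, with Avp at 149.

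**Figure D1:**
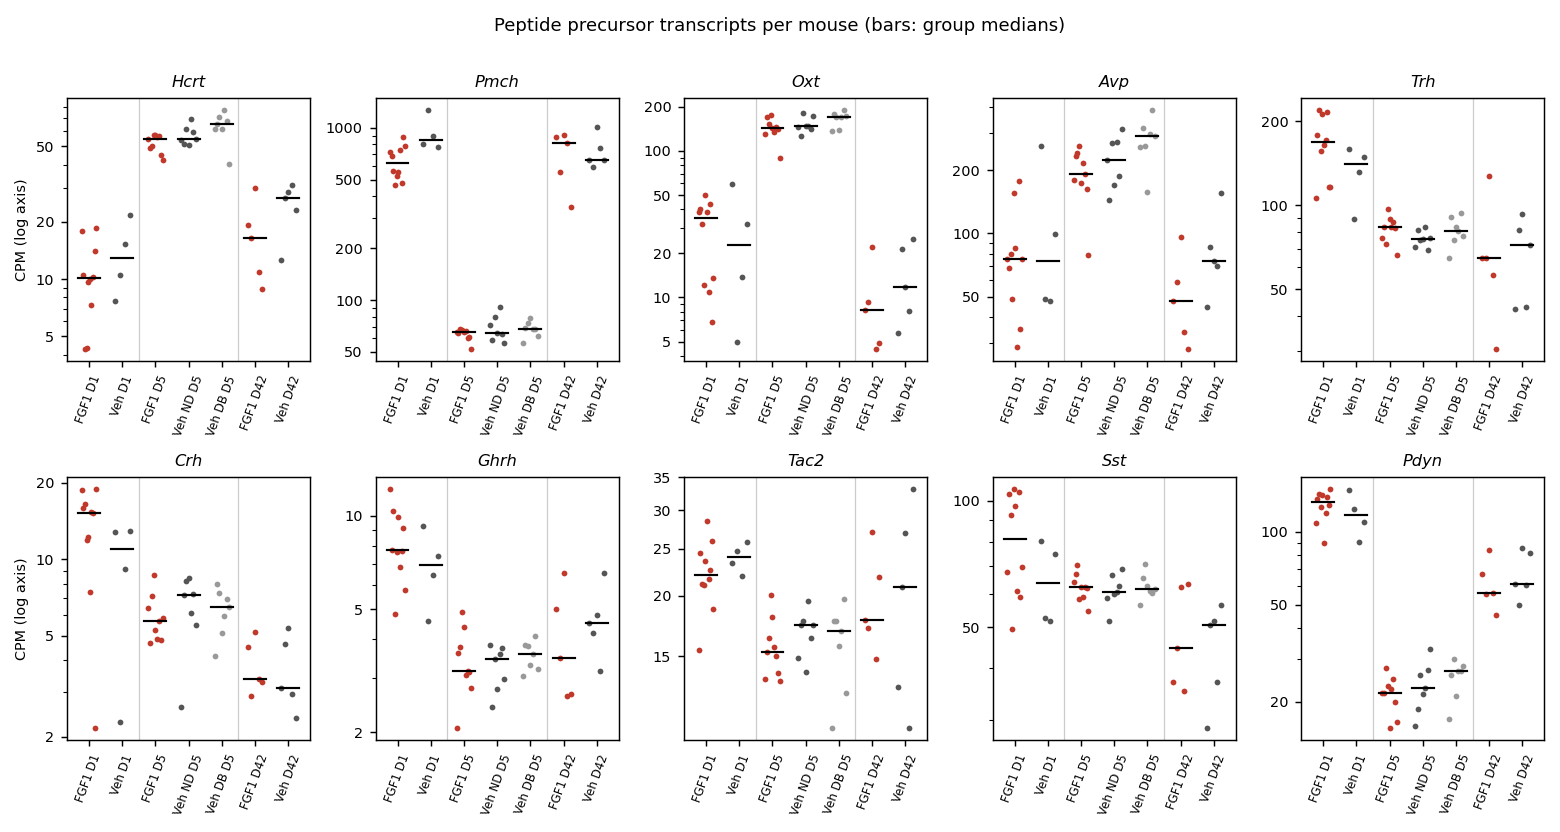
Each panel plots 1 transcript in CPM on a log axis for the 47 mice in 7 groups (red, FGF1; grey, vehicle; D1, D5 and D42 are the days; ND and DB are vehicle labelled non-diabetic and diabetic; black bars, medians). Pmch sits at 347 CPM or more in every mouse of Day 1 and Day 42 and at 91.5 CPM or less in every mouse of Day 5, while Oxt shows the opposite order.

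Pmch, the melanin-concentrating hormone precursor, had a mean of 936 CPM ± 226 (SD, n = 4) in vehicle mice of Day 1, 69.5 ± 12.6 CPM (n = 7) in non-diabetic vehicle of Day 5 and 732 ± 166 CPM (n = 5) in vehicle of Day 42. It was thus 13.5 times higher on Day 1 than on Day 5, with no overlap between the mice of these days, whereas Day 1 and Day 42 overlapped. Pdyn followed the same order, with means of 118, 23.5 and 67.7 CPM in these groups, and for Pdyn all 3 pairs of days were apart. Oxt went the other way, with 27.5 CPM on Day 1, 152 CPM on Day 5 and 14.4 CPM on Day 42, so that Day 5 was 5.52 times higher than Day 1 and 10.5 times higher than Day 42. Hcrt also stood highest on Day 5, at 57.4 CPM against 13.8 and 24.6 CPM. Its ranges on Day 1 and Day 42 overlapped.

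Of the remaining members, Trh was 1.74 times higher in vehicle mice of Day 1 than in non-diabetic vehicle of Day 5, Ghrh 2.13 times and Tac2 1.43 times, each without overlap. Avp, Crh and Sst overlapped between these groups. In all, 7 of the 10 members had disjoint ranges between Day 5 and Day 1, where 55.6% of all genes did. Between Day 5 and Day 42 the count was 4 of 10, against 40.7% of all genes, and between Day 42 and Day 1 it was 1 of 10 (Pdyn), against 19% of all genes. The marker sums given above moved between the same days, and their part in these levels was not tested.

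When the 7 groups of each gene were ordered by their medians, the 3 groups of Day 5 stood next to each other for 9 of the 10 members, the exception being Ghrh, and they overlapped among themselves for all 10. For Pmch, Oxt and Hcrt the neighbouring group of another day did not overlap with them, nor did it for Pdyn. Tac2 medians lay between 15.3 and 24 CPM and Sst medians between 44.7 and 81.1 CPM, with every neighbouring pair of groups overlapping for both.

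The peptides also differed in how much single mice of a group varied. Oxt ranged from 4.97 to 59.3 CPM among the 4 vehicle mice of Day 1 and from 6.82 to 50.1 CPM among the 10 FGF1 mice. Pooled over both groups, its SD was 1.15 on the log2 scale (log2 of CPM plus 0.5), larger than that of 99.9% of the 5082 genes within 2-fold of its level. On Day 5 the SD of Oxt was 0.228, still above that of 98.6% of genes at its level. Avp had SDs of 0.913, 0.451 and 0.671 on Day 1, Day 5 and Day 42, above at least 99.4% of genes at its level on each day. Crh had an SD of 0.924 on Day 1 and of 0.373 on Day 5. At the other end, Tac2 had an SD of 0.215 on Day 1, where 49.7% of genes at its level varied less, and Ghrh stood at 47.5% on Day 5. The wide scatter of Oxt, Avp and Crh sets how small a treatment effect could have been seen in them.

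The comparison of FGF1 with pair-fed vehicle on Day 1 asked which transcripts differed within a day of the injection beyond what reduced food intake gives. All 14221 genes were fitted together by edgeR's quasi-likelihood test. To be called, a gene needed a Benjamini-Hochberg adjusted p below 0.05 together with a log2 fold change beyond 0.5 in either direction. Of the members 1 of 10 was called, Pmch, which fell, where 19.5% of all genes were called (11.5% higher and 8.05% lower, with 58.8% of the calls higher, or 83% when libraries were scaled on pan-neuronal genes). The median log2 fold change of the members was 0.07 and that of all genes 0.01.

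Pmch was measured at 801, 1265, 900 and 777 CPM in the 4 vehicle mice of Day 1. In the 10 FGF1 mice it ran from 464 to 885 CPM with a median of 624 CPM, and 8 of the 10 lay below the lowest vehicle mouse. The ranges overlapped through the 2 highest FGF1 mice. The log2 fold change was −0.55 (SE 0.16, 95% interval −0.88 to −0.22, adjusted p = 0.00504, edgeR). A two-sided exact permutation test of the difference in mean log2 level gave p = 0.012, unadjusted, as 1 of 50 such tests (10 members in 5 comparisons), of which 3 had p under 0.05. The call lay close to the fold threshold, which the value of −0.46 missed in both limma fits (adjusted p = 0.0273 on quantile-normalized values and 0.0271 with sample quality weights). It also rested on 1 library. Without the vehicle mouse at 1265 CPM the log2 fold change was −0.37 (edgeR, adjusted p = 0.093).

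The summed level of 13 pan-neuronal genes moved with this result. It ran from 5294 to 6596 CPM in FGF1 mice and from 6728 to 8216 CPM in vehicle mice of Day 1, without overlap, and was highest in the same vehicle mouse that was highest in Pmch. With libraries scaled by TMM on these neuronal genes alone, which moved the median of all genes to 0.21, the log2 fold change of Pmch was −0.37 (edgeR, adjusted p = 0.074). On that scale it was Sst that was called, at 0.55 (edgeR, adjusted p = 0.0124). Among the mice of Day 1 the deviations of Pmch from its group mean had r = 0.688 with those of the neuronal sum (n = 14, same libraries). The sum of 5 measured choroid plexus markers was 42.4 to 70.7 CPM in FGF1 and 65.3 to 89.6 CPM in vehicle mice of Day 1, and that of 5 measured cortical, hippocampal and amygdalar markers was 27.4 to 55.7 CPM against 24.9 to 29.9 CPM. Of the 5 cortical, hippocampal and amygdalar markers only Lamp5 was called on Day 1, at 1.13 (edgeR, adjusted p = 0.00231). The part of the marker sums in the Pmch value was not tested. The ribosomal protein sum was also added as a covariate, centred on each group mean. It could therefore not take up a difference between the groups. Pmch then stood at −0.55 (edgeR, adjusted p = 0.00291).

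Hcrt, the other lateral hypothalamic precursor, was 7.64, 10.6, 15.2 and 21.9 CPM in vehicle mice and 4.26 to 18.6 CPM, median 10.1 CPM, in FGF1 mice of Day 1. The groups overlapped widely, with 3 FGF1 mice below and 1 vehicle mouse above the other group. Its log2 fold change of −0.46 (SE 0.26) did not pass the test (edgeR, adjusted p = 0.154), and its size rested on 1 library, since it was −0.15 (edgeR, adjusted p = 0.692) without the vehicle mouse at 21.9 CPM.

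For the magnocellular peptides the vehicle mice of Day 1 were too scattered to place an effect. Avp was 259, 48.5, 47.8 and 99.1 CPM in vehicle mice and 28.9 to 177 CPM, median 75.7 CPM, in FGF1 mice. Its log2 fold change was −0.45 (95% interval −1.18 to 0.29), and leaving out the 1 vehicle mouse at 259 CPM turned it to 0.36. Oxt was 59.3, 4.97, 13.8 and 31.9 CPM in vehicle mice and had a median of 35 CPM in FGF1 mice, and its log2 fold change was 0.02 (95% interval −0.80 to 0.84), which became 0.72 without the vehicle mouse at 59.3 CPM and −0.33 without the vehicle mouse at 4.97 CPM. An effect of either sign of about the size seen for Pmch lies within the interval of Oxt. That of Avp holds such an effect only as a decrease, but it rests on a spread shared over all days. The SD of Avp was 0.913 on Day 1 against 0.451 on Day 5, so a rise of that size is not excluded.

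Of the releasing and inhibiting hormones, Sst had the lowest adjusted p and Crh the largest fold change, and neither was called. It was 80.2, 52.5, 51.6 and 74.6 CPM in vehicle mice and 49.6 to 107 CPM, median 81.1 CPM, in FGF1 mice of Day 1, and 5 of the 10 FGF1 mice lay above the highest vehicle mouse. The log2 fold change was 0.34 (SE 0.16, edgeR, adjusted p = 0.0905). With the group-centred ribosomal protein sum as a covariate it was 0.31 (edgeR, adjusted p = 0.00315), under the fold threshold. Crh was 12.8, 2.29, 9.12 and 12.9 CPM in vehicle mice and 2.16 to 18.9 CPM, median 15.3 CPM, in FGF1 mice. Its log2 fold change of 0.49 (SE 0.31) did not pass the test (edgeR, adjusted p = 0.195) and depended on the lowest mouse of either group. It was called at 0.63 (edgeR, adjusted p = 0.0449) without the FGF1 mouse at 2.16 CPM, but was 0.17 (edgeR, adjusted p = 0.69) without the vehicle mouse at 2.29 CPM, and 0.19 with voom sample quality weights (limma, adjusted p = 0.661). Trh had a log2 fold change of 0.34 (SE 0.20, edgeR, adjusted p = 0.18), with 6 of 10 FGF1 mice above the highest vehicle mouse, and Ghrh one of 0.19 (SE 0.20). Without the vehicle mouse that was lowest in Crh and highest in Pmch, the values were 0.19 for Trh and 0.036 for Ghrh, and Ghrh was at 0.37 without the first listed vehicle mouse. The arcuate pair was not called, with log2 fold changes of −0.08 (95% interval −0.42 to 0.27) for Tac2 and 0.12 (95% interval −0.19 to 0.43) for Pdyn. Over fits without 1 of 6 mice of Day 1 these ran from −0.11 to −0.038 for Tac2 and from 0.013, without the third vehicle mouse, to 0.25, without the first, for Pdyn.

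**Figure D2:**
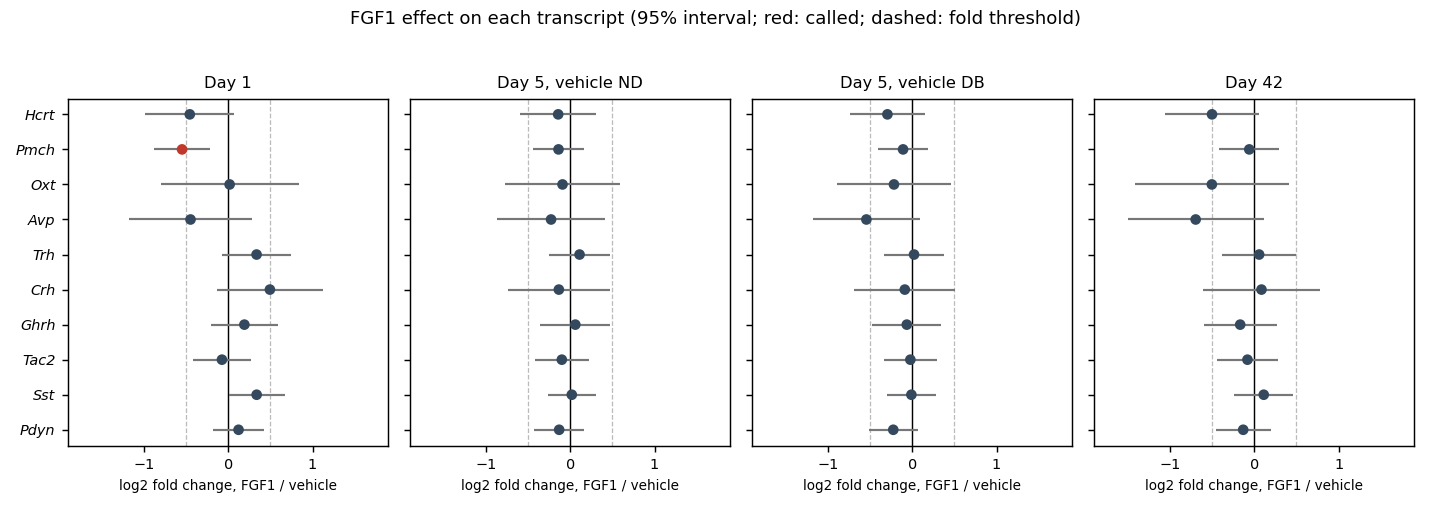
Points give the log2 fold change of FGF1 over vehicle for each transcript on Day 1, on Day 5 against each vehicle group (ND, labelled non-diabetic; DB, diabetic) and on Day 42; bars are 95% intervals, dashed lines mark the fold threshold of 0.5, and red marks a call. Pmch on Day 1, at −0.55, is the one call, and the widest bars belong to Oxt and Avp.

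On Day 5 none of the 10 members was called against either vehicle group, although 7 of them varied least between mice on that day. All genes called were 1.54% against non-diabetic vehicle (1.31% higher and 0.232% lower) and 2.85% against diabetic vehicle, and with no fold threshold the members' calls stayed at 0. No member reached an unadjusted p under 0.05 in edgeR. The DESeq2 Wald test also called 0, and limma with sample quality weights called 1 (Avp, against diabetic vehicle). Both comparisons share the 9 FGF1 mice and are given side by side.

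Avp ran from 78.4 to 261 CPM, median 192 CPM, in FGF1 mice of Day 5. It ran from 144 to 315 CPM, median 224 CPM, in non-diabetic vehicle and from 158 to 386 CPM, median 290 CPM, in diabetic vehicle. In 5 of the 7 diabetic vehicle mice Avp stood above every FGF1 mouse, but all 3 groups overlapped. The log2 fold change was −0.55 (SE 0.31, adjusted p = 0.32, edgeR) against diabetic vehicle (−0.44 without the lowest FGF1 mouse) and −0.23 (SE 0.32, adjusted p = 0.82, edgeR) against non-diabetic vehicle (−0.12 without the same mouse). With the libraries of Day 5 fitted alone, whose scatter is smaller, the difference from diabetic vehicle was called at −0.54 (edgeR, adjusted p = 0.0272), and the two-sided exact permutation test gave p = 0.021, unadjusted. That lowest FGF1 mouse was also the lowest of its group in 7 of the 10 members, with the highest thalamic sum (679 CPM) and the lowest hypothalamic sum (53.1 CPM) of its group, and its library held 27922117 counts. That and another FGF1 library of 30009258 counts stood apart in depth from the remaining FGF1 libraries of Day 5, which held at most 9739244. A diabetic vehicle mouse was the lowest of its group in 8 of the 10, with the highest thalamic sum (772 CPM, the next at 603 CPM) and the highest cortical, hippocampal and amygdalar sum (95.6 CPM) of its group. Without it Avp stood at −0.56 against diabetic vehicle, and without the deeper FGF1 library at −0.52, with no member called in either fit (edgeR). The part of these sums and of depth was not tested.

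Hcrt ran from 42.1 to 57.4 CPM, median 54.8 CPM, in FGF1 mice of Day 5. It ran from 50.8 to 69.9 CPM in non-diabetic and from 40.4 to 77.4 CPM in diabetic vehicle mice, of which 6 of 7 exceeded every FGF1 mouse. The log2 fold changes were −0.14 (SE 0.22) and −0.30 (SE 0.22, edgeR, adjusted p = 0.48), and the two-sided exact permutation test of the latter gave p = 0.0383, unadjusted. In the fit of Day 5 alone this difference was −0.30 (edgeR, adjusted p = 0.0162), under the fold threshold. Pmch ran from 51.7 to 67.9 CPM in FGF1 mice, from 56 to 91.5 CPM in non-diabetic vehicle and from 56.6 to 79.1 CPM in diabetic vehicle, with log2 fold changes of −0.14 (95% interval −0.44 to 0.16) and −0.11 (95% interval −0.41 to 0.19). The remaining 7 members had log2 fold changes between −0.14 and 0.11 against non-diabetic vehicle and between −0.23 and 0.02 against diabetic vehicle. Without the non-diabetic vehicle mouse lowest in Crh, the values against that group were −0.28 for Crh and −0.21 for Pdyn. Sst was the closest to 0, at 0.02 (95% interval −0.27 to 0.31) and −0.01 (95% interval −0.30 to 0.28).

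The labels diabetic and non-diabetic of the pair-fed vehicle mice of Day 5 separated none of the members. What sets these labels apart in ob/ob mice was not given in the sources used here, and the study's methods describe leaving out mice that were not hyperglycaemic, so the comparison is one of the labels only. The log2 difference, diabetic minus non-diabetic, was largest for Avp at 0.32 (SE 0.33, edgeR, adjusted p = 0.9999) and lay between −0.08 and 0.15 for the other 9. Hcrt stood at 0.24 without the diabetic vehicle mouse lowest in Hcrt. Crh stood at −0.19 without the non-diabetic vehicle mouse lowest in Crh. Over all genes 0% were called in this comparison, with 193 genes at an unadjusted p under 0.05 in edgeR, none of them a member, and DESeq2 and limma also called 0 members.

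On Day 42 no member and no gene of the table was called (0%), with 776 genes but none of the members at an unadjusted p under 0.05 in edgeR. Neither DESeq2 nor limma called a member. Avp was 47.4, 58.5, 96.3, 33.8 and 28 CPM in FGF1 mice and 44.4, 85.9, 74, 69.5 and 156 CPM in vehicle mice, and the groups overlapped. Its log2 fold change was −0.70 (SE 0.40, unadjusted p = 0.0875 in edgeR). Hcrt was 19.4, 16.4, 30.1, 10.9 and 8.83 CPM in FGF1 mice and 12.6, 26.9, 28.7, 31.4 and 23.2 CPM in vehicle mice, a log2 fold change of −0.50 (95% interval −1.06 to 0.06). Oxt, at 8.18, 9.35, 22.3, 4.42 and 4.89 CPM against 5.71, 21.4, 11.8, 8.04 and 25 CPM, had the same fold change of −0.50 with a wider interval (−1.42 to 0.41). These values moved with single mice. Avp was −0.37 and Oxt −0.19 without the vehicle mouse highest in both. In its group this vehicle mouse had the lowest pan-neuronal sum (6814 CPM, the next at 8255 CPM). It also had the highest ribosomal protein sum (11257 CPM, the next at 9907 CPM). The part of these 2 sums was not tested. Hcrt was −0.81 and Oxt −1.10 without the FGF1 mouse highest in both. That FGF1 mouse was the highest of its group in 9 of the 10 members, with the lowest thalamic sum (246 CPM, the next at 612 CPM), the highest hypothalamic sum (116 CPM) and the lowest pan-neuronal sum (7202 CPM) of its group. Pmch, at 885, 552, 911, 813 and 347 CPM in FGF1 and 652, 592, 1007, 762 and 647 CPM in vehicle mice, differed by −0.06 (95% interval −0.42 to 0.30).

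The FGF1 mouse of Day 42 at 347 CPM of Pmch stood apart from the other mice of that day in its markers. Its cortical, hippocampal and amygdalar sum was 725 CPM, against at most 129 CPM in the others, its choroid plexus sum 249 CPM against at most 121 CPM, its striatal sum 361 CPM against at most 216 CPM, and its hypothalamic sum was the lowest at 50.6 CPM. It was the lowest of its group in 5 of the 10 members. Without it the log2 fold changes of Day 42 were −0.54 for Avp, −0.35 for Hcrt, −0.35 for Oxt and 0.11 for Pmch, and no member was called (edgeR). The part of these marker sums in the values was not tested.

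Whether the effect of FGF1 changed with the day was tested as the difference of the within-day contrasts, with the non-diabetic vehicle group standing for Day 5 in the peptides and in the receptors described below. No member passed, where 15.8% of all genes did for Day 5 minus Day 1, 16.4% for Day 42 minus Day 1 and 0.717% for Day 42 minus Day 5. The effect on Pmch was higher (less negative) by 0.41 (95% interval −0.04 to 0.86, edgeR, adjusted p = 0.176) on Day 5 than on Day 1, and by 0.49 (SE 0.24, edgeR, adjusted p = 0.136, unadjusted p = 0.0494) on Day 42. Without the vehicle mouse at 1265 CPM, on which the call of Day 1 rested, these differences were 0.23 (edgeR, adjusted p = 0.537) and 0.32 (edgeR, adjusted p = 0.399), and that of Day 42 was 0.31 (edgeR, adjusted p = 0.366) with TMM on the pan-neuronal genes. The Pmch difference of Day 42 was called in 2 of the fits that left out 1 mouse, at 0.66 without the FGF1 mouse at 347 CPM whose markers stood apart (edgeR, adjusted p = 0.02) and at 0.63 without the vehicle mouse at 1007 CPM (edgeR, adjusted p = 0.0486). A drop confined to Day 1 was therefore not shown for Pmch. In no comparison did the ranges of any member separate FGF1 from vehicle mice or the 2 vehicle groups, while over all genes the share apart was 14.4% on Day 1, 3.93% and 6.08% on Day 5 against non-diabetic and diabetic vehicle, 0.267% on Day 42 and 0.0984% between the vehicle groups.

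Some of the peptides varied together across mice of the same group. Each group mean was first subtracted from log2(CPM + 0.5). By permutation within groups (100000 resamples, Benjamini-Hochberg over the 45 pairs), 15 of the 45 pairs of members were related at an adjusted p under 0.05. The share of related pairs among other genes was not computed as a background to this count. All 15 relations were positive. The closest was that of Oxt with Avp, with Pearson's r = 0.842 and Spearman's rho = 0.849 (permutation p = 1e-05 for both, the smallest that the resamples can give, adjusted p = 0.00045). It was 0.855 within Day 1, 0.884 within Day 5 and 0.939 within Day 42, and 0.839 without the 2 mice farthest in Oxt. Avp of single mice thus followed Oxt on every day, while the vehicle means of Day 5 and Day 1 differed 5.52 times for Oxt and 1.98 times, with overlap, for Avp.

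**Figure D3:**
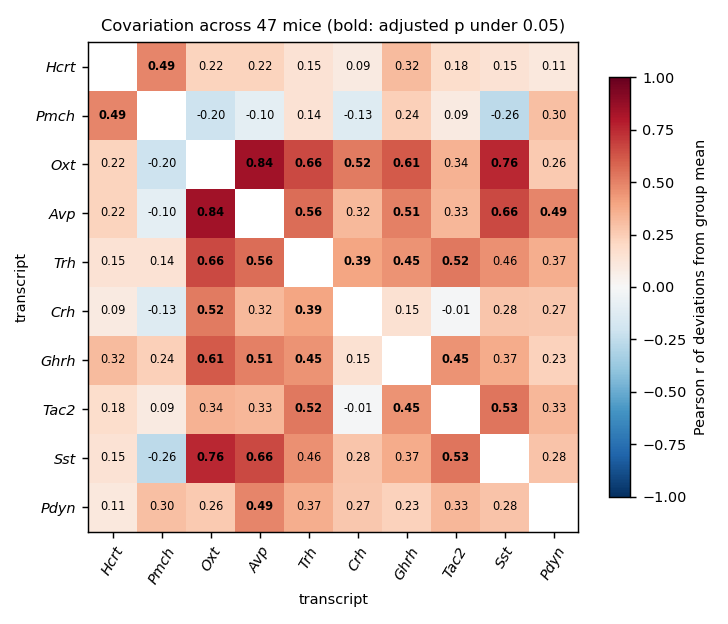
Pearson's r between the 10 transcripts over 47 mice, each value first set relative to its group mean on the log2 scale; bold marks the 15 pairs with an adjusted p under 0.05. The highest values join Oxt and Avp to each other and to Sst and Trh, with Oxt also joined to Ghrh at 0.612, and Hcrt is bold with Pmch alone.

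Oxt with Sst (r = 0.757, rho = 0.726) and Avp with Sst (r = 0.657, rho = 0.594) followed, with adjusted permutation p = 0.0009 for both r values. Oxt was also related to Trh (r = 0.657, rho = 0.647, permutation, adjusted p = 0.00146) and to Ghrh (r = 0.612, rho = 0.605, permutation, adjusted p = 0.00288). Among the lateral hypothalamic genes, Hcrt was related to Pmch (r = 0.489, rho = 0.446, permutation, adjusted p = 0.0278 for r and 0.0252 for rho), with 0.41, 0.543 and 0.604 within Day 1, Day 5 and Day 42, and Hcrt passed with no other member. Pdyn passed with Avp (r = 0.488, rho = 0.503) and not with its arcuate partner Tac2 (r = 0.329, rho = 0.288, permutation, adjusted p = 0.0949 for r). The relation of Oxt with Crh (r = 0.521) fell to 0.231 without the 2 mice farthest in Oxt and so rested on those mice. In 14 of the 15 pairs the sign was the same on all 3 days, the exception being Ghrh with Tac2, which was −0.039 within Day 1.

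The points of these relations share the dissection and the library of each mouse. The deviations of the ribosomal protein sum had r = 0.849 with those of Sst, 0.799 with Oxt and 0.696 with Avp over the 47 mice, but −0.228 with Pmch and 0.164 with Hcrt. After regression on that sum, r between Oxt and Avp was 0.663, between Oxt and Sst 0.248 and between Avp and Sst 0.175, while Hcrt with Pmch stood at 0.548. The pan-neuronal sum had a negative r with 9 of the 10 members, among them r = −0.714 for Oxt, −0.691 for Avp and −0.734 for Trh. The thalamic sum did so too on Day 5, with r between −0.422 and −0.812 over the 10 members. On Day 42 its r lay between −0.395 and −0.747, and on Day 1 it took either sign. The hypothalamic transcription factor sum had r = 0.94 with Pmch on Day 42. The part of these sums in the relations beyond the regression on ribosomal protein genes was not tested.

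**Figure D4:**
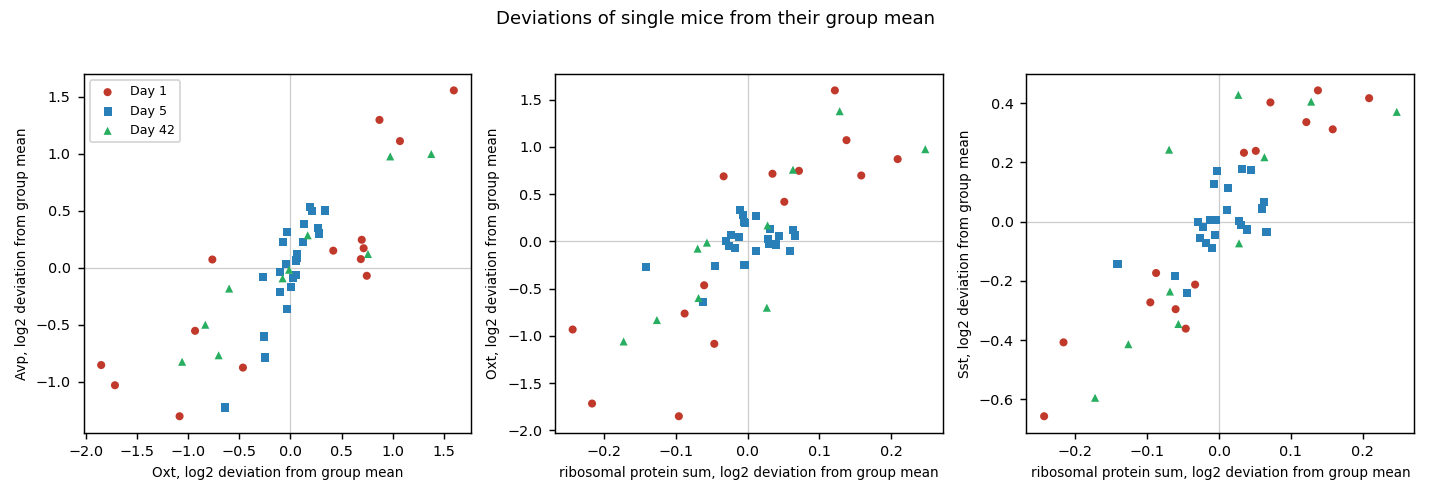
Log2 deviations of single mice from their group mean on Day 1, Day 5 and Day 42: Avp against Oxt (left), and Oxt (middle) and Sst (right) against the summed level of 80 ribosomal protein genes. Avp follows Oxt on each day (r = 0.855, 0.884 and 0.939), and the mice of Day 5 lie closest to their group means.

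Among 14122 other genes with a mean of at least 1 CPM, the gene most like a member in these deviations was a fellow member only for Avp, whose closest was Oxt. For Oxt the closest were Isyna1 (r = 0.907), Slc16a11 (r = 0.895) and the ribosomal protein gene Rpl37a (r = 0.878). For Sst they were Rplp1 (r = 0.877), Ftl1 (r = 0.877) and Rpl19 (r = 0.861), that is, 2 ribosomal protein genes and a ferritin light chain gene. Trh was most like Hap1 (r = 0.902), Vat1 (r = 0.876) and Hyou1 (r = 0.865). Pmch was most like Gprasp2 (r = 0.767), the imprinted gene Peg3 (r = 0.723) and Sytl4 (r = 0.72). Pdyn was most like Tac1 (r = 0.716), which encodes substance P. Hcrt had no close match, the highest r being 0.541 with Alas2, an erythroid heme synthesis gene, and Crh was most like Pde6b (r = 0.667), with which it had r = 0.031 within Day 42. Ghrh reached 0.74 with Tmed4 and Tac2 0.692 with Fhad1.

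Genes for the receptors of these peptides were called more than once on Day 1. Of 20 genes listed as receptors of the members or as the Crh-binding protein, 16 were measured. On Day 1, 5 of the 16 were called higher and 1 lower, with a median log2 fold change of 0.17 against 0.01 over all genes and 19.5% of all genes called. Hcrtr1, the receptor selective for hypocretin-1, was 7.45 to 10.7 CPM in the 4 vehicle mice and 9.25 to 29 CPM, median 23.4 CPM, in FGF1 mice, a log2 fold change of 1.18 (SE 0.20, edgeR, adjusted p = 2.96e-06). Hcrtr2, which binds both hypocretins, rose by 0.62 (SE 0.17, edgeR, adjusted p = 0.00211). The oxytocin receptor Oxtr rose by 0.70 (SE 0.11, edgeR, adjusted p = 8.59e-07) and the vasopressin receptor Avpr1a by 0.67 (SE 0.18, edgeR, adjusted p = 0.00167). Sstr1, a somatostatin receptor that was named after its values were seen because the rule covered 5 genes of a list, rose by 0.52 (SE 0.14, edgeR, adjusted p = 0.00239) and was still called in 9 of 14 alternatives. Tacr3, the receptor of neurokinin B, fell by 0.55 on the log2 scale (SE 0.13, edgeR, adjusted p = 0.000646), and its FGF1 mice (8.15 to 16.1 CPM) lay wholly below its vehicle mice (18.7 to 22.7 CPM). Hcrtr1, Oxtr and Avpr1a were called in every alternative (15, 15 and 14), whereas Hcrtr2 was called in 14 of 15 and Tacr3 in 13 of 15, with values from −0.69 to −0.35 over the 15. The marker sums of Day 1 moved with these receptor values as with Pmch. The log2 difference, FGF1 minus vehicle, was 0.81 for the cortical, hippocampal and amygdalar sum (two-sided exact permutation p = 0.003). Of the 5 measured genes of that sum only Lamp5 was called. The difference was −0.24 for the pan-neuronal sum (exact permutation p = 0.002, no overlap) and −0.53 for the choroid plexus sum (exact permutation p = 0.003). The part of these sums in the receptor values was not tested. Thus Hcrtr1, Hcrtr2, Oxtr and Avpr1a were called higher, while Hcrt, Oxt and Avp themselves were not called. Avpr1a was the only vasopressin receptor gene measured, and no test set a receptor against its peptide. No receptor was called on Day 5 or Day 42. The difference between days was called for Hcrtr1, Oxtr and Avpr1a on Day 5 against Day 1 (−1.25, −0.69 and −0.83, edgeR, adjusted p = 0.000341, 0.000375 and 0.00856). On Day 42 against Day 1 it was called for Hcrtr1 (−1.63), Hcrtr2 (−0.69), Oxtr (−0.56) and Avpr1a (−0.75), with adjusted p between 1.8e-05 and 0.0279 (edgeR).

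**Figure D5:**
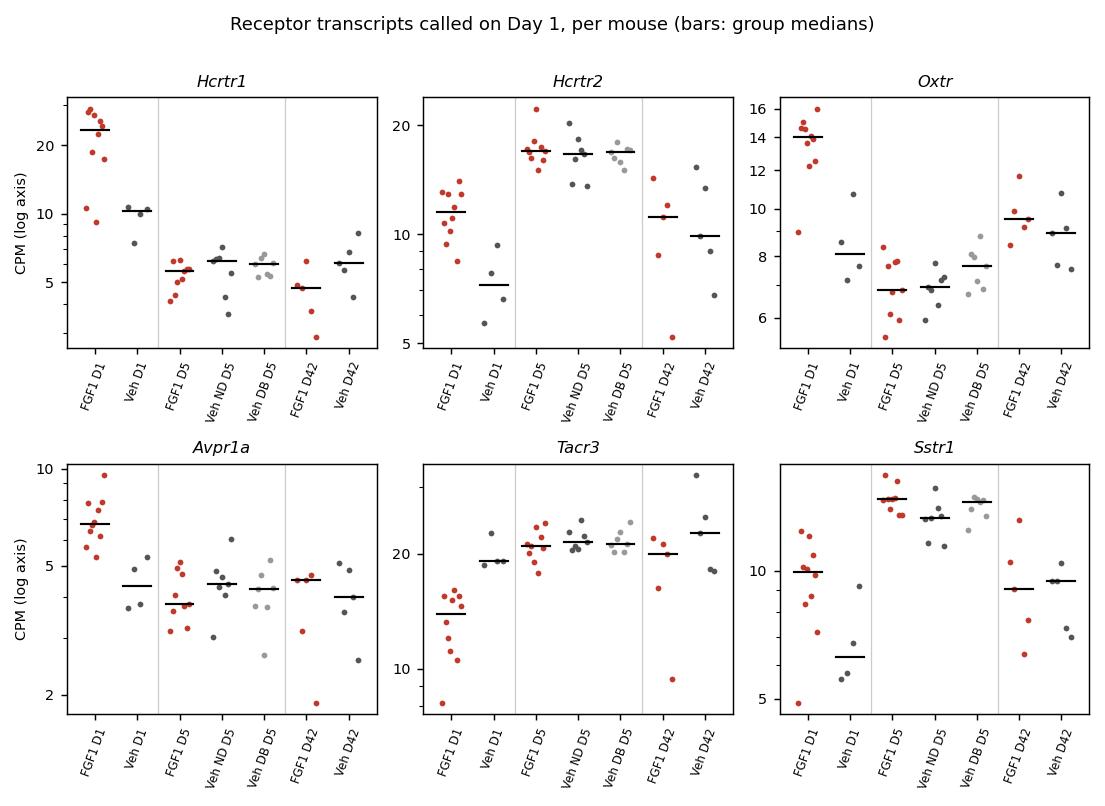
The 6 receptor transcripts called on Day 1, in CPM on a log axis for each mouse (red, FGF1; grey, vehicle; groups named as in the plot of peptide levels; bars, medians). Hcrtr1 reaches 29 CPM in FGF1 mice of Day 1 against at most 10.7 CPM in their vehicle mice, and Tacr3 is lower in all FGF1 mice of Day 1 than in any vehicle mouse of that day.

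The members were also set beside 3 further gene lists. Over all genes 19.5% were called on Day 1, 1.54% and 2.85% on Day 5 against non-diabetic and diabetic vehicle, and 0% on Day 42. Of 35 other hypothalamic neuropeptide genes, 21 were measured. On Day 1 Gal (galanin) rose by 0.78 (SE 0.19, edgeR, adjusted p = 0.000569), while Apln (apelin) fell by 1.02 on the log2 scale (SE 0.11, edgeR, adjusted p = 2.63e-10) and Nmb (neuromedin B) fell by 0.79 (SE 0.17, edgeR, adjusted p = 0.000216). Spx (spexin) was the 1 gene of this list called on Day 5, at 0.80 (SE 0.25, edgeR, adjusted p = 0.0337) against diabetic vehicle, and was still called in 8 of 12 alternatives. Of 18 genes for the processing and vesicles of peptides, Vgf, a granin-like precursor, rose by 1.01 on Day 1 (SE 0.18, edgeR, adjusted p = 8.59e-06) and the prohormone convertase gene Pcsk1 fell by 0.56 (SE 0.10, edgeR, adjusted p = 1.17e-05; called in 14 of 15 alternatives), and none was called within Day 5 or Day 42. Of 16 transcription factor genes of the neuroendocrine and lateral hypothalamus, 15 were measured and 0 were called within any day. The medians of the 3 lists on Day 1 were −0.18, −0.09 and −0.08.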

How the data were processed

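RNA of a hypothalamic punch from each of 47 mice had been sequenced with a stranded mRNA kit. The submitters' processing notes name STAR, DESeq2 and GRCh38, a human assembly name, for these mouse libraries, while the counting program and its strand setting were not given in the sources used here. The authors deposited whole-number counts per gene, not normalized, for 14221 genes, none with under 307 counts in total. A second deposited sheet gave a preparation code for each library (1 code per day), which was used to look for batches.

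Groups came from the treatment labels, and each library was 1 mouse, as labelled. No 2 libraries of a group agreed within sampling noise (lowest chi-square per degree of freedom 1.66). Counts were fitted with edgeR 4.0.16 (TMM, filterByExpr, which removed no gene, quasi-likelihood F test, 1 mean for each of the 7 groups), with Benjamini-Hochberg adjustment over all genes. The SE is the absolute log2 fold change over the square root of F. Single members were tested by exact permutation in SciPy and relations by permutation within groups. Levels for display are CPM scaled by TMM, and log2 levels carry a pseudocount of 0.5 CPM. Exon lengths came from the GENCODE annotation of GRCm38.

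All 10 members were named in every comparison, of each list up to 5 called genes with the largest change were to be named, and the 3 most similar genes were taken by Pearson's r. The members and gene lists were chosen with earlier results of these data known, and no list test was run. In counts simulated for the Day 1 comparison (14221 genes), genes drawn at random were changed on the log2 scale. Of those changed by 0.75, 86% were called, and of those changed by 1.5, 99%. Hcrt, Oxt, Avp and Crh scattered more on Day 1 than nearly all genes at their level, so these shares do not describe them. Intervals of the fits cover the spread between mice. The alternatives are given at the end; they include DESeq2 1.42.0 and limma 3.58.1, and a covariate for ribosomal protein genes and the fits without 6 single libraries were added after the data had been seen.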

Additional observations from a re-analysis of the deposited data

Results flagged for a closer look

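Within each of the 70 groups of values formed by 10 members and 7 groups of mice, the gap between an extreme mouse and its nearest neighbour was divided by the range of the group. In 6 of the 70 the share was above Dixon's 95% critical value, and chance gives about 5% of groups. All 6 were low values. The FGF1 mouse numbered 9 of Day 5 was apart for 3 peptides, with a share of 0.546 for Pmch (51.7 CPM), 0.553 for Oxt (89.5 CPM, the next mouse at 131) and 0.609 for Avp (78.4 CPM, the next at 163). Its thalamic marker sum was 679 CPM, the highest of its group, and its total of 27922117 counts was the second highest, where 7 of the 9 libraries of the group held at most 9739244. The diabetic vehicle mouse numbered 5 of Day 5 was apart for Hcrt, with a share of 0.646 (40.4 CPM, the next at 61.5). For Crh, the FGF1 mouse numbered 9 of Day 1 had a share of 0.551 (2.16 CPM, the next at 7.44) with the highest thalamic sum of its group (300.0 CPM), and the non-diabetic vehicle mouse numbered 1 of Day 5 had a share of 0.618 (2.61 CPM, the next at 5.48) with the highest thalamic sum of its group. The part of the thalamic sum in these values was not tested.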

How the results depend on the processing

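No paired analysis was possible because the replicate numbers only name the mice and pair none of them across groups. Single mice were left out in turn for all 10 mice of Day 42 and the 4 vehicle mice of Day 1, but for only 2 FGF1 mice of Day 1 and 5 of the 23 mice of Day 5, and ranges without a mouse cover these fits alone. Of 837 member values recomputed under an alternative, 780 kept their direction and stayed called or not called (of these, 54 crossed 1 of the 2 thresholds, 4 that on adjusted p and 50 that on fold), 47 turned direction, 4 lost a call and 6 gained one; for every turned value the main log2 fold change lay between −0.45 and 0.11, and no turned value was called. The number of members called on Day 1 was 0 with limma on quantile-normalized values and with limma voom weights; over these fits it ran from 0 (without vehicle mouse 2) to 2 (without FGF1 mouse 9). It was 1 against diabetic vehicle on Day 5 with voom weights and with the libraries of Day 5 alone, and ran from 0 to 1 for Day 42 minus Day 1 without 1 mouse. Log2 values that turned with TMM on pan-neuronal genes were 0.13 for Tac2 on Day 1, 0.021 for Oxt and 0.0105 for Tac2 against non-diabetic vehicle, 0.0001 for Crh, 0.027 for Ghrh, 0.066 for Tac2 and 0.077 for Sst against diabetic vehicle, and −0.022 for Pmch in Day 42 minus Day 5. With voom weights they were −0.18 for Oxt on Day 1, −0.0046 for Ghrh against non-diabetic and −0.0008 for Trh against diabetic vehicle, 0.076 for Ghrh and 0.21 for Tac2 on Day 42, and 0.0012 for Pmch between the vehicle groups. With quantile normalization they were −0.027 for Ghrh against non-diabetic vehicle, −0.0265 for Trh on Day 42, 0.024 for Crh between the vehicle groups and −0.018 for Pmch in Day 42 minus Day 5. DESeq2 size factors gave −0.033 for Oxt on Day 1, merged vehicle groups −0.0058 for Ghrh, and a minimum of 10 counts per library 0.0008 for Tac2 and 0.013 for Sst against diabetic vehicle. Within Day 1 alone r of Ghrh with Tac2 was −0.039. Without single mice, Day 1 values ran from −0.33 to 0.72 for Oxt, −0.70 to 0.36 for Avp, −0.66 to −0.15 for Hcrt, 0.17 to 0.69 for Crh, 0.19 to 0.44 for Trh and 0.036 to 0.37 for Ghrh; values against diabetic vehicle from −0.099 to 0.0067 for Tac2, −0.034 to 0.012 for Sst and −0.027 to 0.057 for Trh; values between the vehicle groups from −0.021 to 0.0093 for Pmch and −0.19 to 0.031 for Crh; Day 42 values from −0.17 to 0.11 for Pmch, −0.29 to 0.24 for Trh, −0.050 to 0.27 for Crh, −0.25 to 0.15 for Tac2 and −0.014 to 0.21 for Sst; and Pmch in Day 42 minus Day 5 from −0.032 to 0.25. The cause was not tested for any of these. Over all genes, calls against non-diabetic vehicle on Day 5 numbered 219, but 374 with TMM on pan-neuronal genes, 408 with quantile normalization, 438 with voom weights, 370 with Day 5 alone, 372 with merged vehicle groups and 140 with at least 10 counts in every library. Against diabetic vehicle they numbered 406, but 640 with quantile normalization and 219 with at least 10 counts. That last filter also gave 1582 in place of 2776 calls on Day 1, 1402 in place of 2247 for Day 5 minus Day 1 and 1525 in place of 2332 for Day 42 minus Day 1. On Day 42 31 genes were called without FGF1 mouse 1, and for Day 42 minus Day 5 56 in place of 102 without FGF1 mouse 5. With TMM on pan-neuronal genes, which moved the Day 1 median of all genes to 0.21, the share of higher calls went from 58.8% to 83% on Day 1, from 84.9% to 95.5% and from 82.5% to 93.3% on Day 5 against non-diabetic and diabetic vehicle, and from 46.1% to 30.6%, 40.2% to 14.3% and 32.4% to 14.5% for the differences Day 5 minus Day 1, Day 42 minus Day 1 and Day 42 minus Day 5. Quantile normalization gave 66.4% and 65.2% on Day 5, and DESeq2 size factors 50.5% for Day 42 minus Day 1. The smallest permutation p that 5 against 5 mice allow is 0.00794.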
